A study of Homo sapiens with 15 samples.

Results

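CPA4, PIK3C2G and RERG are 3 of the 61544 genes in a table of raw RNA-seq counts from HCC95 cells. They were chosen because CPA4 fell strongly, and PIK3C2G and RERG rose strongly, when KLF5 was knocked down. Their values in that comparison are therefore a description and carry no test. HCC95 is an established cell line from a human lung squamous cell carcinoma (LUSC), and the study asked what 4 transcription factors (TP63, SOX2, KLF5 and GRHL2) contribute to gene expression in LUSC cells. The cells received 1 small interfering RNA (siRNA), a short double-stranded RNA that directs cleavage of a matching mRNA. The 5 groups were siTP63b, siSOX2b, siKLF5b, siGRHL2a and the negative control siNC1, with 3 libraries each. Each factor was thus targeted by a single siRNA in a single cell line, and the labels do not say that the libraries came from separate cultures, so p-values measure the spread between these libraries alone, which may be technical. Polyadenylated RNA was captured, reverse-transcribed with random hexamers and sequenced as paired-end reads.

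KLF5 is a zinc-finger transcription factor of the Krüppel-like family, which binds GC-rich and CACCC-type boxes and is active in proliferating basal epithelium. CPA4 encodes a secreted zinc metallocarboxypeptidase, which removes hydrophobic amino acids from the C-terminus of peptides and is inhibited by latexin. PIK3C2G encodes the gamma isoform of the class II phosphoinositide 3-kinases (PI3K), lipid kinases that act on membranes. RERG encodes a small GTPase of the RAS superfamily that was named as an estrogen-regulated inhibitor of growth in breast cancer cells.

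CPA4 (ENSG00000128510.12) lies on the plus strand of chromosome 7, at chr7:130293134-130324180 (hg38), a span of 31047 bases of which 12.7% is exonic in Gencode release 44. PIK3C2G (ENSG00000139144.11) covers 405456 bases of the plus strand at chr12:18242961-18648416, and 1.502% of that span is exonic. RERG (ENSG00000134533.6) covers 240893 bases of the minus strand at chr12:15107783-15348675, with 1.73% exonic. All 3 are protein-coding, and their canonical transcripts have 11, 33 and 5 exons. The counted length of each gene was its whole span, and intronic reads counted alongside exonic ones. For PIK3C2G and RERG, nearly all of that span is intron.

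The promoter sequences of CPA4 and PIK3C2G are shown because 1 of these genes fell and the other rose in siKLF5b. RefSeq promoters (GRCh38.p14) were given for 2 of the 3 genes, and RERG is named only. Each run is the 250 bases before the RefSeq start, 5′ to 3′ on the plus strand, at chr7:130292911-130293160 and chr12:18261268-18261517. Capitals mark matches to any of 4 motifs searched on both strands. The KLF/SP box was searched as CCNCNCCC. The AP-1 site, which is its own reverse complement, was searched as TGANTCA. The search for a TATA box used the letters TATAAA. For a SOX core the letters were ACAATG, and the 4 motifs could overlap each other.
CPA4: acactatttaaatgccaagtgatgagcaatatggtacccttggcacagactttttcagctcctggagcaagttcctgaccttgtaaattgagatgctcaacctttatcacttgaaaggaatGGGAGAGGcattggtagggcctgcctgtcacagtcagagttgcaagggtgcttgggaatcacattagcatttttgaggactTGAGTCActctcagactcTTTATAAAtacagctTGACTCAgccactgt
PIK3C2G: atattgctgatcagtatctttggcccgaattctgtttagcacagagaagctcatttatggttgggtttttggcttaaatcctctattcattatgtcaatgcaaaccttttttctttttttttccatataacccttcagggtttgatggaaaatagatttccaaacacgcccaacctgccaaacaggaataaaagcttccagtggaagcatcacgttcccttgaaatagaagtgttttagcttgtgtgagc

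The CPA4 promoter held 1 match to the KLF/SP box, on the minus strand, which began 129 bases before the start. It held AP-1 matches beginning 48 and 15 bases before the start, and TATA box matches in both orientations, overlapping each other, at 30 and 28 bases. It held no SOX core. The PIK3C2G promoter held none of the 4 motifs, and its RefSeq start lies 18.6 kb inside the counted span. Among 35116 promoters of the same length, 53.4% held the KLF/SP box, 6.57% the AP-1 site, 10.7% the TATA box and 9.29% the SOX core. A match is a string of letters, and binding was not measured here.

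Library totals ran from 15655495 to 34229063 counts. KLF5 itself, in CPM (counts scaled to a common library size with TMM factors), was 122.8, 108.5 and 107.2 in siNC1 and 71.8, 71.8 and 73.8 in siKLF5b. Its level fell by 0.64 ± 0.058 (SE) on the log2 scale (edgeR's quasi-likelihood test, Benjamini-Hochberg adjusted p = 5.3e-10, n = 3 per group), which is less than the fold threshold of 0.75 used for calls. The groups did not overlap. SOX2 was higher in siKLF5b than in siNC1 by 0.54 ± 0.079 on the log2 scale (SE, edgeR adjusted p = 3.7e-06). TP63 and GRHL2 had a log2FC of -0.13 ± 0.051 and 0.06 ± 0.047. The column names of the table part the libraries into 2 sets, siNC1 with siKLF5b and siTP63b with siSOX2b and siGRHL2a. Counts were more often even numbers in the latter set, at 66.1% to 69.0% of genes with 20 to 500 counts per library, against 49.7% to 50.7% in the former. Differences of siTP63b, siSOX2b and siGRHL2a from siNC1 thus cannot be told apart from differences between the sets. The 10 squamous markers were above 3 counts in every library. Their summed level was 10143 to 11643 CPM in siNC1 and 6589 to 7586 CPM in siKLF5b. Single markers moved both ways. By an edgeR adjusted p under 0.05 alone, 6 of the 10 were lower in siKLF5b and 3 higher, where 23.2% of all genes passed in either direction. With the fold threshold as well, 3 were lower and 1 higher, where 1.37% and 1.89% of all genes were. Of the markers of other cells, 2 of 8 for fibroblasts, 1 of 8 for leukocytes, 1 of 6 for endothelium and 3 of 7 for lung adenocarcinoma and alveolar cells were above 3 counts in every library. Summed leukocyte markers were 34.1 to 36.8 CPM in siNC1 and 21.5 to 24.4 CPM in siKLF5b, with CD3D at 0 throughout. Summed endothelial markers were 14.97 to 15.8 and 11.5 to 13.6 CPM, summed fibroblast markers 3.98 to 6.34 and 4.07 to 4.45 CPM, and summed adenocarcinoma and alveolar markers 8.47 to 10.3 and 9.38 to 9.86 CPM, in the same order. The part of these markers in the results was not tested.

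CPA4 was lowest in siKLF5b and highest in siGRHL2a, groups that belong to different sets of libraries. In siNC1 its level was 17.7, 20.5 and 20.05 CPM. In siKLF5b it was 6.91, 6.45 and 8.20 CPM, from 129 to 157 counts. Every siKLF5b library lay below every siNC1 library, and the group means were 7.19 ± 0.909 and 19.4 ± 1.499 CPM (SD, n = 3 each), 2.70-fold apart. The fitted log2FC was -1.45 ± 0.091 (SE). In bulk RNA, fewer cells that express a gene and less of its RNA per cell cannot be told apart.

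The 3 other knockdowns stood on the opposite side of the control. CPA4 was 56.8, 56.7 and 60.0 CPM in siTP63b, with a mean of 57.8 ± 1.87 CPM (SD, n = 3). It was 70.3, 71.2 and 70.0 CPM in siSOX2b, with a mean of 70.5 ± 0.623 CPM. It was 82.5, 87.1 and 76.3 CPM in siGRHL2a, with a mean of 82.0 ± 5.40 CPM. The order was thus siKLF5b, siNC1, siTP63b, siSOX2b and siGRHL2a, and no neighbours in it overlapped. Against siNC1 the log2FC was 1.58 ± 0.071 in siTP63b, 1.86 ± 0.071 in siSOX2b and 2.08 ± 0.071 in siGRHL2a. These 3 values share their control libraries with each other and with the siKLF5b value that chose the gene, and they cross the 2 sets of libraries.

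PIK3C2G had few counts in all groups. In siNC1 it was at 3.06, 2.58 and 2.43 CPM, from 47 to 69 counts. In siKLF5b it was at 8.74, 8.06 and 7.57 CPM, from 119 to 196 counts. The siKLF5b libraries were all above the siNC1 libraries, with means of 8.12 ± 0.587 and 2.69 ± 0.328 CPM (SD, n = 3 each), a ratio of 3.02, and the fitted log2FC was 1.59 ± 0.17.

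In siTP63b PIK3C2G was at 3.13, 3.26 and 2.42 CPM, with a mean of 2.94 ± 0.453 CPM. In siSOX2b it was at 1.93, 1.94 and 2.12 CPM, with a mean of 1.996 ± 0.110 CPM. In siGRHL2a it was at 1.28, 0.784 and 1.16 CPM, from 26 to 44 counts, with a mean of 1.07 ± 0.258 CPM. The level in siTP63b overlapped that of siNC1, the other neighbours in the order siGRHL2a, siSOX2b, siNC1, siTP63b and siKLF5b did not overlap. Against siNC1 the log2FC was 0.13 ± 0.18 in siTP63b, -0.44 ± 0.19 in siSOX2b and -1.32 ± 0.21 in siGRHL2a, with the same shared control libraries.

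RERG was lowest in siNC1 and at means of 5.87 to 7.04 CPM in the 4 knockdowns. In siNC1 it was at 2.57, 2.80 and 2.43 CPM, from 51 to 58 counts. In siKLF5b it was at 7.69, 6.33 and 7.06 CPM, from 111 to 168 counts. These groups did not overlap, their means were 2.60 ± 0.185 and 7.02 ± 0.679 CPM (SD, n = 3 each), a ratio of 2.70, and the log2FC was 1.44 ± 0.16.

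RERG was at 5.42, 6.12 and 6.69 CPM in siTP63b, with a mean of 6.08 ± 0.640 CPM. It was at 6.54, 4.97 and 6.10 CPM in siSOX2b, with a mean of 5.87 ± 0.810 CPM. It was at 8.12, 6.63 and 6.36 CPM in siGRHL2a, with a mean of 7.04 ± 0.948 CPM. In the order siNC1, siSOX2b, siTP63b, siKLF5b and siGRHL2a, only siNC1 was apart from its neighbour, and the 4 knockdowns overlapped step by step. Against siNC1 the log2FC was 1.23 ± 0.16 in siTP63b, 1.18 ± 0.16 in siSOX2b and 1.44 ± 0.16 in siGRHL2a, all against the control libraries that the choice of RERG had used.

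Per kb of counted span, CPA4 had the highest level of the 3 genes in every group. Its mean level in siNC1 was 0.625 CPM per kb, against 0.0108 for RERG and 0.0066 for PIK3C2G. In siKLF5b the levels were 0.232, 0.0292 and 0.02003 CPM per kb in the same order. The span was 12.7% exonic for CPA4, 1.73% for RERG and 1.502% for PIK3C2G, so this order need not be that of transcript abundance. Before scaling to the span, the siKLF5b means were 7.19 CPM for CPA4, 7.02 for RERG and 8.12 for PIK3C2G.

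In siKLF5b against siNC1, 818 of 25108 genes tested passed both call thresholds (adjusted p under 0.05, log2FC beyond 0.75 in either direction), which is 3.26% of them, with 1.37% lower and 1.89% higher. Among 15346 genes averaging 100 counts or more, the log2FC of CPA4 was the 13th from the lowest and that of RERG the 7th from the highest. PIK3C2G had a mean of 81.5 counts and was outside that set. These ranks describe how the genes were chosen.

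The comparisons among siTP63b, siSOX2b and siGRHL2a contrast none of the libraries that chose the genes, and all 9 libraries belong to 1 set. Their SE and p also rest on siNC1 and siKLF5b, since all 15 libraries shared 1 estimate of the spread. The comparisons answer whether the 3 genes differed between the groups that received these siRNAs. Each p was adjusted over the 25108 genes tested. The groups differed in more than 1 of the targeted genes. SOX2 was at means of 29.5 CPM in siTP63b, 8.97 in siSOX2b and 20.2 in siGRHL2a, beside 73.3 in siNC1. GRHL2 was at 117, 100.2 and 91.3 CPM, beside 135, and TP63 at 363, 690.0 and 831 CPM, beside 682, in the same order of groups. KLF5 was at 138, 153 and 132 CPM in that order, beside 113 in siNC1. Calls were made for 6.7% of genes in siTP63b against siSOX2b, 5.39% in siTP63b against siGRHL2a and 3.32% in siSOX2b against siGRHL2a.

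PIK3C2G differed most in these tests. It was 2.74-fold higher in siTP63b than in siGRHL2a (log2FC 1.45, 95% interval 1.05 to 1.85, edgeR's quasi-likelihood test, Benjamini-Hochberg adjusted p = 8.5e-07, n = 3 each). It was 1.86-fold higher in siSOX2b than in siGRHL2a (log2FC 0.88, interval 0.46 to 1.30, edgeR adjusted p = 0.00171), and without the second siGRHL2a library the log2FC was 0.70, below the fold threshold. With the counts of overlapping genes taken away, this difference was 0.50 on the log2 scale and did not pass (edgeR adjusted p = 0.246, n = 3 each, against 0.00136 to 0.246 over all alternatives tried). That step may also remove reads of PIK3C2G itself. Between siTP63b and siSOX2b the log2FC was 0.57 (interval 0.19 to 0.94, edgeR adjusted p = 0.0184), also below the fold threshold. Its adjusted p was between 0.0513 and 0.0776 by edgeR without the first or second library of either group. It was 0.0638 by edgeR when only the 6 libraries compared were fitted, and from 0.00688 to 0.0776 over all alternatives. In all 3 comparisons the libraries of the groups did not overlap.

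CPA4 differed between all 3 knockdowns by amounts that were small beside its distance from siNC1. The log2FC was -0.50 (interval -0.63 to -0.37, edgeR's quasi-likelihood test, Benjamini-Hochberg adjusted p = 2.0e-07, n = 3 each) in siTP63b against siGRHL2a. It was -0.29 (interval -0.42 to -0.16, edgeR adjusted p = 0.000712) in siTP63b against siSOX2b. It was -0.22 (interval -0.35 to -0.09, edgeR adjusted p = 0.0101) in siSOX2b against siGRHL2a. The adjusted p was below 0.05 in each, the libraries did not overlap, and no difference reached the fold threshold. Without the second siGRHL2a library the adjusted p of siSOX2b against siGRHL2a was 0.0784 by edgeR, against 0.00529 to 0.0784 over all alternatives.

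RERG was not shown to differ among the 3 knockdowns. The log2FC was 0.05 (interval -0.23 to 0.33, edgeR's quasi-likelihood test, Benjamini-Hochberg adjusted p = 0.823, n = 3 each) in siTP63b against siSOX2b. It was -0.21 (interval -0.49 to 0.06, edgeR adjusted p = 0.257) in siTP63b against siGRHL2a and -0.26 (interval -0.54 to 0.01, edgeR adjusted p = 0.158) in siSOX2b against siGRHL2a. On all counts, the intervals leave room for a log2FC of up to 0.54 in size. Those counts include reads in a stretch shared with PTPRO. With the counts of overlapping genes taken away, siTP63b against siGRHL2a was at -0.53 ± 0.21 (SE, edgeR adjusted p = 0.0639). The intervals thus do not bound the difference in reads of RERG alone.

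**Figure D1:**
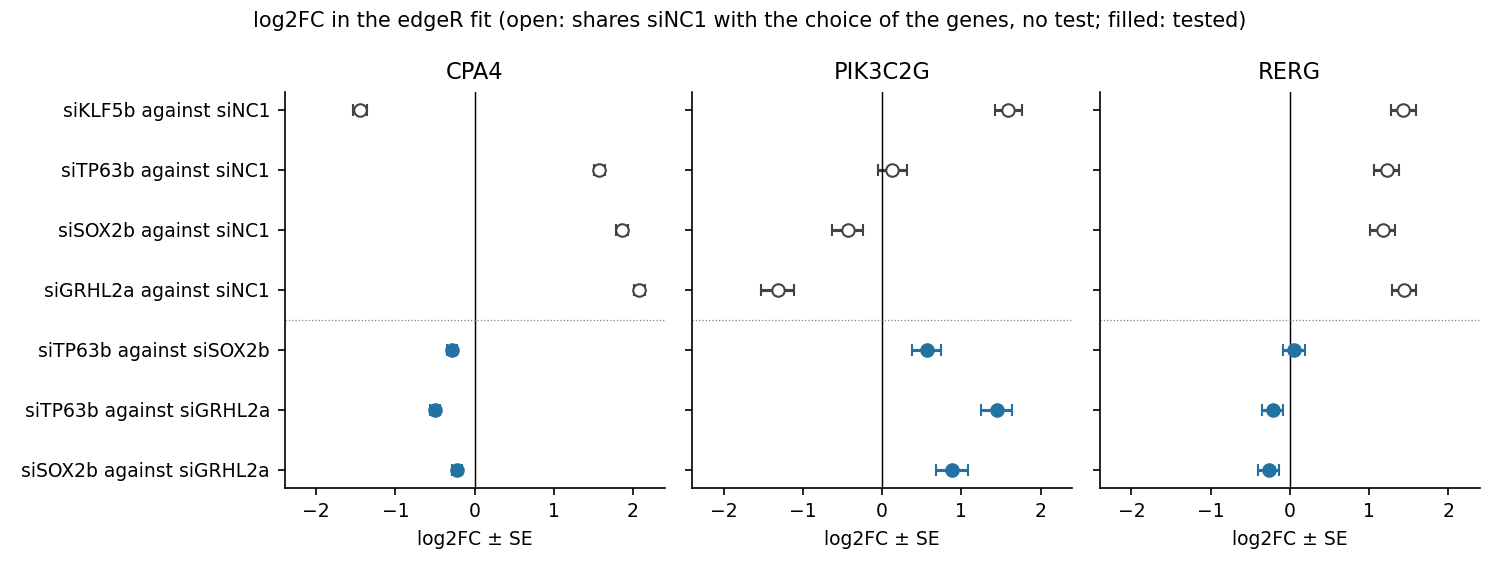
Fitted log2FC (horizontal axis) with its SE for the 3 genes in 7 comparisons of 3 libraries each; open points share the siNC1 libraries with the choice of the genes and have no test, filled points compare siTP63b, siSOX2b and siGRHL2a with each other. CPA4 is at -1.45 in siKLF5b and at 1.58 to 2.08 in the other knockdowns against siNC1, and RERG is at 0.05, -0.21 and -0.26 in the filled comparisons.

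Reads in stretches shared with other genes enter the counts of PIK3C2G and RERG, and also those of the other genes. No other listed gene overlaps CPA4, while 4 overlap PIK3C2G and 4 overlap RERG. Wherever the span of 1 gene lay inside that of another and the inner gene had at least 10 counts in a library, the outer gene had as many counts or more, in 33357 of 33357 comparisons on the same strand and 52408 of 52408 on opposite strands. Reads in a shared stretch were therefore treated as counted for both genes, whatever their strand.

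PIK3C2G overlaps RERGL, which encodes a relative of RERG and lies on the minus strand at chr12:18080869-18320107. The shared stretch of 77147 bases is 19.0% of PIK3C2G and 32.2% of RERGL. The canonical RERGL transcript, at chr12:18080869-18090193, lies outside it. The stretch holds 2000 exon bases of PIK3C2G and 149 of RERGL, so counts of RERGL may include reads of PIK3C2G. Which gene the shared reads came from was not tested. RERGL had 25, 20 and 32 counts in siNC1 and 57, 80 and 41 in siKLF5b. It had 34, 37 and 28 counts in siTP63b, 42, 27 and 20 in siSOX2b, and 20, 10 and 9 in siGRHL2a. Like PIK3C2G it was highest in siKLF5b and lowest in mean CPM in siGRHL2a.

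RERGL rose by a log2FC of 1.26 ± 0.28 in siKLF5b against siNC1 (edgeR's quasi-likelihood test, Benjamini-Hochberg adjusted p = 0.000928, n = 3 each). Since it can share reads with PIK3C2G, which was chosen on this comparison, that p is not independent evidence. RERGL was also higher in siTP63b than in siGRHL2a (log2FC 1.52 ± 0.32, edgeR adjusted p = 0.000497) and in siSOX2b than in siGRHL2a (1.36 ± 0.33, edgeR adjusted p = 0.00228). The other genes that overlap PIK3C2G had few counts. NDFIP1P1 had at most 3 counts in a library, ENSG00000255960 had 3 to 12 in siKLF5b and 0 to 4 in the other groups, and ZKSCAN7P1 had 0 in all 15 libraries.

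RERG overlaps PTPRO, a receptor-type tyrosine phosphatase gene on the plus strand at chr12:15322257-15602175. The shared stretch of 26419 bases is 11.0% of RERG and 9.44% of PTPRO, and it lies outside the canonical RERG transcript, which covers chr12:15107783-15221417. It holds 656 exon bases of RERG and 741 of PTPRO. PTPRO had 47, 42 and 54 counts in siNC1 and 88, 87 and 61 in siKLF5b. It had 111, 86 and 100 counts in siTP63b, 92, 68 and 72 in siSOX2b, and 118, 120 and 94 in siGRHL2a. Its counts were 81.0% to 93.1% of those of RERG in siNC1 and 52.4% to 56.5% in siKLF5b.

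PTPRO rose by a log2FC of 0.79 ± 0.19 in siKLF5b against siNC1 (edgeR's quasi-likelihood test, Benjamini-Hochberg adjusted p = 0.00242, n = 3 each), and the same limit applies as for RERGL. It was under the fold threshold without the first siNC1 library or the first siKLF5b library (0.74 in both). RERG-IT1 and RERG-AS1 had at most 4 counts in any library, and METTL8P1 at most 8.

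Taking away the counts of every overlapping gene gives the fewest counts that can lie in the rest of each span. It may also take away reads of PIK3C2G and RERG themselves. For PIK3C2G that left 40, 27 and 22 counts in siNC1 and 120, 110 and 73 in siKLF5b, or 0.923 to 1.77 and 4.52 to 5.49 CPM, a ratio of 3.51. The reduced siKLF5b values were also above the full siNC1 values of 2.43 to 3.06 CPM. For RERG it left 10, 8 and 4 counts in siNC1 and 79, 63 and 49 in siKLF5b, or 0.168 to 0.443 and 2.59 to 3.61 CPM. The ratio of these means was 8.87, and it rests on the few counts left in siNC1. The reduced siKLF5b values of RERG overlapped its full siNC1 values of 2.43 to 2.80 CPM.

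In the other knockdowns, PIK3C2G kept 40 to 58 counts in siTP63b, 21 to 35 in siSOX2b and 16 to 29 in siGRHL2a. RERG kept 53 to 86, 66 to 120 and 98 to 156 counts in the same order of groups. These were 1.73 to 2.92 CPM in siTP63b and 2.73 to 3.67 CPM in siSOX2b, which overlapped the full siNC1 values of 2.43 to 2.80 CPM, and 2.95 to 4.53 CPM in siGRHL2a, which lay above them.

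The relatives of CPA4 mostly stayed under the fold threshold in siKLF5b against siNC1. Of 24 carboxypeptidases and related genes, 16 were tested, and 1 was called, or 1 higher and 0 lower, against the 3.26% of all genes in either direction. The median log2FC was 0.24, against -0.01 over all genes tested. AGBL4, a cytosolic carboxypeptidase of the deglutamylase family, was at 2.26 to 3.19 CPM in siNC1 and 4.21 to 4.64 CPM in siKLF5b. It rose by a log2FC of 0.75 ± 0.21 (edgeR's quasi-likelihood test, Benjamini-Hochberg adjusted p = 0.00665, n = 3 each), at the edge of the fold threshold. It was not called without the first or second siNC1 library (0.64 and 0.71) or the second or the third siKLF5b library (0.72 and 0.74).

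DESeq2 also called 1 higher and 0 lower. At an unadjusted edgeR p under 0.05 there were 8 higher and 0 lower. No share of all genes was taken at that p, so this count has no background. By the adjusted p alone 5 carboxypeptidases were higher and 0 lower, where 23.2% of all genes passed in either direction. Among the most abundant members, AGTPBP1, which trims tubulin tails, was higher by 0.25 ± 0.067 and AGBL5 by 0.15 ± 0.056 (log2FC, edgeR adjusted p = 0.0054 and 0.0467, n = 3 each). CPD, a membrane carboxypeptidase of the secretory route, had a log2FC of 0.04 ± 0.046. LXN, which encodes latexin, the inhibitor of CPA4, was at 69.9 to 73.6 CPM in siNC1 and 70.9 to 72.5 CPM in siKLF5b, a log2FC of -0.0033 ± 0.056. CPA5, which lies beside CPA4 on chromosome 7, had a mean of 12.9 counts and a log2FC of 0.05 ± 0.60.

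Of 22 genes of the PI3K pathway besides PIK3C2G, 19 were tested and 0 were called by edgeR, where 3.26% of all genes were. By the adjusted p alone 3 were lower and 2 higher, where 23.2% of all genes passed in either direction. DESeq2 called 0 as well, and 5 were lower and 2 higher at an unadjusted edgeR p under 0.05, with no share of all genes taken. Their median log2FC was -0.07. PIK3C2A, the broadly expressed class II kinase, had a log2FC of -0.09 ± 0.051 and PIK3CA, the class I catalytic subunit alpha, one of -0.01 ± 0.046. PIK3C2B, the remaining class II kinase, is named after its value was seen, and its log2FC was -0.26 ± 0.12 (edgeR adjusted p = 0.119, n = 3 each).

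Of 35 RAS-like GTPases, 27 were tested, and 1 was called lower and 1 higher, where 1.37% and 1.89% of all genes were, with a median log2FC of -0.11. The gene called higher was RERGL, which shares sequence span with PIK3C2G, so its call is not independent of the choice of PIK3C2G. RASD2, a RAS homologue best known from the striatum, was at 0.797 to 1.55 CPM in siNC1 and 0.493 to 0.636 CPM in siKLF5b, and fell by 1.01 on the log2 scale (SE 0.30, edgeR's quasi-likelihood test, Benjamini-Hochberg adjusted p = 0.0134, n = 3 each). It was not called without the first siNC1 library (-0.68) or the second siKLF5b library (-0.92). By the adjusted p alone 5 were lower and 3 higher, beside 23.2% of all genes in either direction. RHEB, the activator of mTORC1, was at 159 to 170 CPM in siNC1 and 102 to 108 CPM in siKLF5b, and its level fell by 0.65 on the log2 scale (SE 0.053, edgeR adjusted p = 5.8e-11). RAP1B and NKIRAS1 had a log2FC of -0.05 ± 0.052 and 0.01 ± 0.042.

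Of 16 genes of the estrogen response, 13 were tested, and 1 was called lower and 0 higher, where 1.37% and 1.89% of all genes were, with a median log2FC of -0.12. DESeq2 gave the same numbers, and 3 were lower and 4 higher at an unadjusted edgeR p under 0.05, with no share of all genes taken. GREB1, an estrogen-induced cofactor of the receptor, was at 2.41 to 3.32 CPM in siNC1 and 0.961 to 1.44 CPM in siKLF5b. It fell by 1.27 on the log2 scale (SE 0.29, edgeR's quasi-likelihood test, Benjamini-Hochberg adjusted p = 0.00138, n = 3 each). By the adjusted p alone 3 were lower and 3 higher, beside 23.2% of all genes. They included CTSD, a lysosomal protease, with a log2FC of -0.34 ± 0.069, and FOXA1, a pioneer factor of the estrogen receptor, with 0.65 ± 0.092. The receptor genes ESR1 and ESR2 had a log2FC of -0.0009 ± 0.21 and -0.03 ± 0.048, and XBP1 one of -0.12 ± 0.067.

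Among siTP63b, siSOX2b and siGRHL2a the same lists were read against calls for 6.7% of all genes in siTP63b against siSOX2b, 5.39% in siTP63b against siGRHL2a and 3.32% in siSOX2b against siGRHL2a. Of the 16 carboxypeptidases 2 were called in siTP63b against siSOX2b, and 1 in each comparison with siGRHL2a. Of the 19 PI3K genes 0, 0 and 1 were called by edgeR in siTP63b against siSOX2b, siTP63b against siGRHL2a and siSOX2b against siGRHL2a, DESeq2 giving the same numbers, and the 1 being PIK3R2, a regulatory subunit, with a log2FC of -0.81 ± 0.081. By the adjusted p alone, 9, 11 and 4 of the 19 passed, where 31.8%, 27.1% and 24.5% of all genes did. At an unadjusted edgeR p under 0.05 the numbers were 11, 13 and 9, with no share of all genes taken. Of the 27 RAS-like GTPases 3, 5 and 3 were called, and of the 13 estrogen response genes 3, 2 and 1, in that order of comparisons. The shares of these 2 lists and of the carboxypeptidases were above those of all genes in each comparison, and the difference was not tested. For the carboxypeptidases this rests on 1 or 2 genes. The RAS-like GTPases called in both comparisons with siGRHL2a include RERGL, which can share reads with PIK3C2G.

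Genes around the 3 members were mostly below the fold threshold in siKLF5b against siNC1. Within 500 kb and outside their spans, 16 genes were tested near CPA4, 2 near PIK3C2G and 14 near RERG. Of these 32, 1 was called by edgeR and 1 by DESeq2, against 3.26% of all genes. It was ENSG00000261324, a long noncoding RNA gene near RERG, with a log2FC of 0.75 ± 0.24 (edgeR's quasi-likelihood test, Benjamini-Hochberg adjusted p = 0.0219, n = 3 each), which was not called without the first or second siNC1 library (0.69 and 0.62) or the first siKLF5b library (0.62). Near CPA4 the log2FC ranged from -0.25 to 0.42, with 5 of 16 genes lower and 4 higher by the adjusted p alone, where 23.2% of all genes passed in either direction. UBE2H, a ubiquitin-conjugating enzyme, was at -0.23 ± 0.044, MEST at -0.17 ± 0.059 and COPG2, a coatomer subunit, at 0.24 ± 0.052. Near RERG the median log2FC was 0.38, and by the adjusted p alone 4 of 14 genes were higher and 1 lower. WBP11, a splicing factor, was higher by 0.67 ± 0.048 and H2AJ, a histone variant, by 0.44 ± 0.092, while EPS8, an actin regulator, was at -0.23 ± 0.049.

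RERG and PIK3C2G lie 2894 kb apart on chromosome 12. Between them 10 genes that overlap neither were tested and 0 were called by edgeR, with 1 lower and 0 higher by the adjusted p alone, where 3.26% and 23.2% of all genes passed in either direction. DESeq2 called 0 of them, and 1 was lower and 0 higher at an unadjusted edgeR p under 0.05, with no share of all genes taken. Their log2FC ranged from -0.23 to 0.93.

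**Figure D2:**
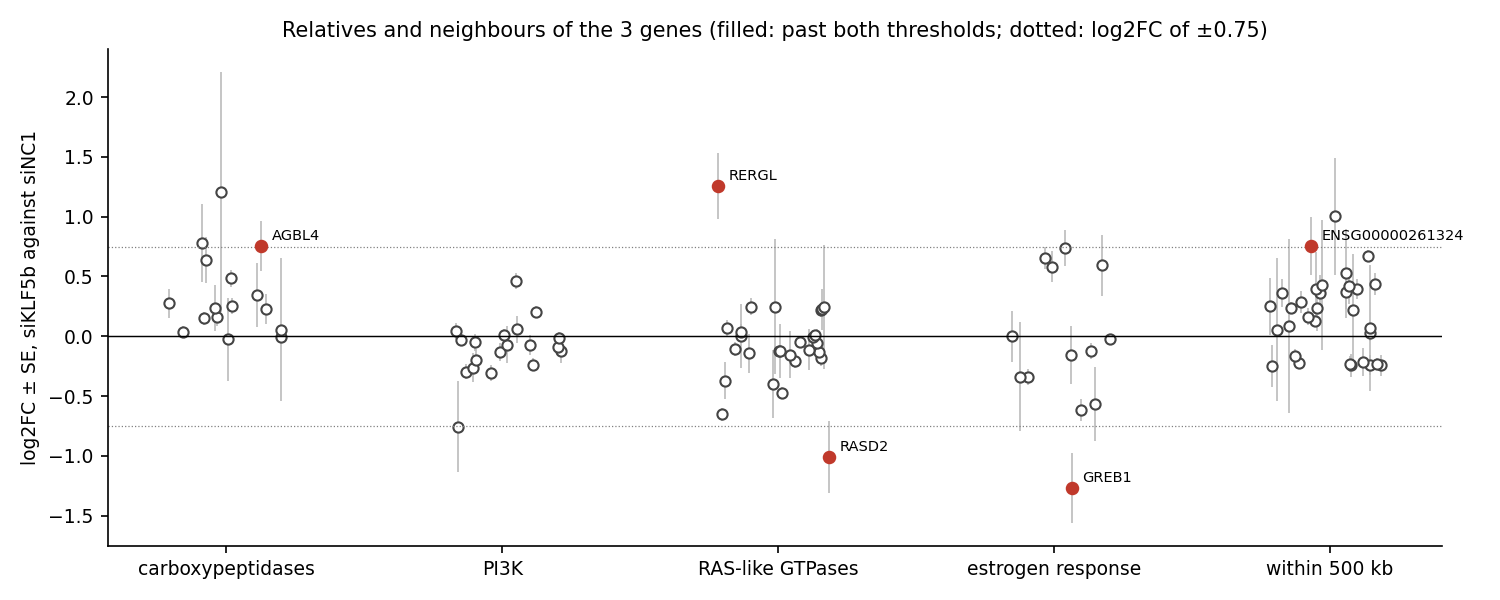
Fitted log2FC with its SE (vertical axis) in siKLF5b against siNC1 for tested genes of 4 lists and for tested genes within 500 kb of CPA4, PIK3C2G or RERG and outside their spans; each point is 1 gene, filled points passed both call thresholds, and dotted lines mark 0.75 on both sides. The filled points are AGBL4, RERGL, RASD2, GREB1 and ENSG00000261324, and the PI3K list has none. RERGL can share reads with PIK3C2G, which was chosen on this comparison.

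The genes whose pattern over the 15 libraries was most like that of each member were found by Pearson's r of log2 CPM among 12062 protein-coding genes averaging 100 counts or more. These correlations describe libraries that share their groups and fall into 2 sets, and they carry no test. The libraries include those of siNC1 and siKLF5b that chose the members, so part of each pattern was set by that choice. For CPA4 the nearest were GPRC5A (r = 0.993), NAV2, CD24, IGFL1 and KRT16 (r = 0.988). KRT16, a keratin of activated keratinocytes, had group means of 2.48 CPM in siNC1, 0.744 in siKLF5b, 9.85 in siTP63b, 14.2 in siSOX2b and 16.4 in siGRHL2a. IGFL1, a secreted insulin-like factor of skin, had 1.11, 0.144, 11.7, 33.7 and 31.8 CPM in the same order.

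For PIK3C2G the nearest were ME1 (r = 0.978), a cytosolic malic enzyme, CEMIP2, PDE4DIP, NEDD1 and RADX (r = 0.942). ME1 moved far less than PIK3C2G, from a mean of 284 CPM in siGRHL2a to 327 CPM in siNC1 and 396 CPM in siKLF5b. For RERG the nearest were GANAB (r = 0.961), the catalytic subunit of an endoplasmic reticulum glucosidase, ZNF618, PERP, EIF3F and NOLC1 (r = 0.952). GANAB was at a mean of 122 CPM in siNC1 and 268, 234, 250.3 and 270.5 CPM in siKLF5b, siTP63b, siSOX2b and siGRHL2a. Between the members r was -0.87 for CPA4 with PIK3C2G, 0.20 for CPA4 with RERG and 0.04 for PIK3C2G with RERG. CPA4 was chosen for falling and the other members for rising in siKLF5b, so these values rest partly on the choice.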

How the data were processed

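RNA-seq counts of 15 HCC95 libraries were used, in 5 groups of 3 named by the sample titles. The authors ran HISAT2 2.2.1 against hg38 and counted uniquely aligned reads per gene with featureCounts 2.0.1 (versions per the submitters' processing notes), on Gencode release 40. The values they deposited are raw, unnormalized counts. All columns were matched to libraries by name. The strand setting, and whether reads or fragments were counted, are not given in the sources used here. Gene models were read from Gencode release 44, where 61445 of 61544 identifiers were found.

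Analysis was done in edgeR 4.0.16 under R 4.3.3 (limma 3.58.1). Counts were filtered by group with filterByExpr and scaled with TMM factors, and all 15 libraries entered 1 quasi-likelihood fit. Benjamini-Hochberg adjustment covered all 25108 genes tested. A call needed an adjusted p under 0.05 and a log2FC beyond 0.75 in either direction. Intervals used the t quantile of the fit. The steps were tested on simulated counts. Library totals of 15655495 to 34229063 limit the precision of genes with few counts. Replicates differed by more than counting noise, with a chi-square per gene of 1.95 to 7.48 between libraries of a group. It was 1.95 to 4.02 in siNC1 and siKLF5b, and 4.67 to 7.48 in siTP63b, siSOX2b and siGRHL2a, the groups in which the members were tested. Counts in these 3 groups were also more often even, and the part of this in the chi-square was not tested.

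The members, gene lists and tests were chosen with earlier results of these data known. Named were the 3 members, the targeted genes, overlapping genes, list members called in siKLF5b or else up to 4 with the highest mean count, tested genes within 500 kb, and the 5 genes most like each member. Some genes chosen this way are not reported here. PIK3C2B and PIK3R2 were added after their values were seen.

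Alternatives were RLE and upper-quartile factors, at least 10 counts in every library, no filter, a replicate block, only the 6 libraries compared, DESeq2 1.42.0, other fold thresholds, and each library left out in turn. Western blots were not used here.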

Additional observations from a re-analysis of the deposited data

How the results depend on the processing

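In all, 27 results were recomputed under the alternatives, and 374 of 422 values kept their direction and their side of the threshold, or moved by less than the limit set for a value with no test. With no fold threshold the call was gained by CPA4 in siTP63b against siSOX2b (log2FC -0.29), siTP63b against siGRHL2a (-0.50) and siSOX2b against siGRHL2a (-0.22), and by PIK3C2G in siTP63b against siSOX2b (0.57). The number of genes called in siKLF5b against siNC1 was then 5828, with 5 carboxypeptidases, 5 PI3K genes, 8 RAS-like GTPases, 6 estrogen response genes and 14 neighbours. At an absolute log2FC above 1 it was 369, with 0 carboxypeptidases and 0 neighbours, and PIK3C2G in siSOX2b against siGRHL2a (0.88) was not called. These shifts follow from the thresholds. Over all alternatives the edgeR or DESeq2 adjusted p of CPA4 in siSOX2b against siGRHL2a ran from 0.00529 to 0.0784, and that of RERG in the 3 tested comparisons stayed at 0.0639 or above.

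With the counts of overlapping genes taken away, an alternative chosen after seeing the data, the log2FC of PIK3C2G against siNC1 was 1.82 in siKLF5b, 0.34 in siTP63b and -1.02 in siGRHL2a, and that of RERG was 3.16 in siKLF5b, 2.86 in siTP63b, 3.17 in siSOX2b and 3.40 in siGRHL2a. PIK3C2G was then called in siTP63b against siSOX2b (0.86) and not in siSOX2b against siGRHL2a (0.50), and RERG turned to -0.31 in siTP63b against siSOX2b, not called. Fewer counts remain by construction, and reads of the members may be among those taken away. The values for RERG against siNC1 rest on the 4 to 10 counts left per siNC1 library, and as ratios of lower limits they are neither folds nor bounds. With counts halved for siTP63b, siSOX2b and siGRHL2a, also chosen after seeing the data, 2 carboxypeptidases and 2 estrogen response genes were called. With only the 6 libraries compared, 2 carboxypeptidases, 2 estrogen response genes and 2 neighbours were called. Upper-quartile factors gave 2 estrogen response genes, and at least 10 counts in every library gave 1 RAS-like GTPase. The genes called in all under these 4 settings were 1043, 1090, 835 and 686 in that order, against 818 in the main fit. The cause of these shifts was not tested.

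The replicate numbers do not pair the libraries, since libraries of the same number correlated at -0.045 to 0.049 in their deviations from the group means. With the replicate block 805 genes were called in siKLF5b against siNC1, with 0 carboxypeptidases and 0 neighbours, and no other result changed its call.

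Leaving out 1 library gave 699 to 806 genes called in siKLF5b against siNC1, with 0 to 1 carboxypeptidases, 0 PI3K genes, 1 to 2 RAS-like GTPases, 1 to 2 estrogen response genes and 0 to 1 neighbours. The log2FC of PIK3C2G in siSOX2b against siGRHL2a ran from 0.70 to 1.04, and it was not called without the second siGRHL2a library. RERG in siTP63b against siSOX2b ran from -0.065 to 0.14, and was negative without the third siTP63b library (-0.03) or the second siSOX2b library (-0.065). For PIK3C2G and RERG low counts limit what these tests can resolve.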

Other observations

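The counts of the 3 genes shared the excess of even numbers that separates the 2 sets of libraries. Over siTP63b, siSOX2b and siGRHL2a, 9 libraries in all, CPA4 had an even count in 8, PIK3C2G in 8 and RERG in 9. Over siNC1 and siKLF5b, 6 libraries in all, the numbers were 1, 2 and 4. The part of this difference in the comparisons with siNC1 was not tested.

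Some genes of the RAS-like and estrogen response lists that were not called in siKLF5b against siNC1, since they did not pass the fold threshold, were called among siTP63b, siSOX2b and siGRHL2a, and they are named after their values were seen. NRAS was lower in siSOX2b, at a mean of 48.2 CPM, than in siTP63b, at 97.5 CPM, or in siGRHL2a, at 96.3 CPM. The log2FC was 1.02 ± 0.050 in siTP63b against siSOX2b and -0.9998 ± 0.050 in siSOX2b against siGRHL2a (edgeR's quasi-likelihood test, Benjamini-Hochberg adjusted p = 2.3e-16 and 1.1e-15, n = 3 each). RAP2B, a RAS relative, was highest in siGRHL2a, at 82.8 CPM, against 44.1 CPM in siTP63b and 39.2 CPM in siSOX2b. FOXA1 was highest in siTP63b, at 27.5 CPM, against 8.15 CPM in siSOX2b and 10.9 CPM in siGRHL2a, with a log2FC of 1.76 ± 0.091 and 1.34 ± 0.088.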
